A study of Mus musculus with 20 samples.

Results

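The integrin family, the integrin-like protein Itgbl1 and the adaptor proteins that tie integrins to actin were examined in the heart apex of mice given Zeb2os, the long noncoding RNA antisense to Zeb2. The set held 35 genes, taken by symbol from a list of 18 alpha subunits, 8 beta subunits, Itgbl1 and 8 adaptors. All 35 had a row in both of the authors' deposited tables, out of 26214 genes listed there, and all 35 had a p-value and an adjusted p-value in each. RNA came from uninjured wild-type mice of the FVB/NRj strain, labelled P28 (postnatal day 28). They had been injected behind the eye (retro-orbitally) with AAV9, a viral vector with a strong tropism for heart muscle. The groups were hTNNT2 Zeb2os (3 males and 2 females) and its hTNNT2 control (0 males and 5 females), and CMV Zeb2os (1 male and 4 females) and its CMV control (2 males and 3 females), with 5 mice each. The hTNNT2 promoter, of human cardiac troponin T, is active in cardiomyocytes, whereas the CMV promoter is active in most cell types. The cargo of the control vectors is unstated in the labels. The tables give each gene a mean count over the 10 libraries of a comparison and a log2 fold change with a standard error (SE). Values per mouse were not analysed here. Spread between mice therefore enters only through this SE, which has a ceiling described below.

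Integrins are receptors built from 1 alpha and 1 beta subunit that span the cell membrane, binding matrix proteins or other cells outside and the actin cytoskeleton inside. Talins and kindlins bind the beta tail and switch the receptor on. Integrin-linked kinase (Ilk) with its partners parvin (Parva) and PINCH (Lims1), vinculin (Vcl) and paxillin (Pxn) then build the link to actin. In heart muscle this machinery sits at costameres, the adhesion sites beside the Z-discs, where it carries force between sarcomeres and matrix. Itgbl1 is a secreted protein whose EGF-like repeats resemble the stalk of integrin beta subunits, and it is not itself a receptor subunit.

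With hTNNT2 Zeb2os, Itgbl1 rose, and it was the single gene of the 35 that passed, which here means an adjusted p under 0.05 in the authors' DESeq2 test, adjusted across the whole table. In the authors' deposited table its level was 1.31 times that of controls, which is 0.39 on the log2 scale (SE 0.083), with an adjusted p of 0.0173. For comparison, the authors' deposited table called 0.0385% of 18169 genes with hTNNT2, and 0.0275% as higher. Itgbl1 ranked 3 by p among all genes there. With CMV Zeb2os, 0 of the 35 passed, against 0.00469% of 21318 genes called, and in the authors' deposited table Itgbl1 stood at -0.067 (SE 0.067, unadjusted p = 0.317). At an unadjusted p under 0.05 the set held 3 genes with hTNNT2, all higher, and 0 with CMV. The corresponding shares of all genes in the authors' deposited tables were 3.92% with hTNNT2, 2.27% as higher and 1.67% with CMV. At mean counts of 50 or more, where 34 of the 35 lay with hTNNT2 and 33 with CMV, these shares were 5.17% and 1.87% in either direction. The genes were chosen with earlier results of these data known, so counts set beside these shares are no test of the set.

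**Figure D1:**
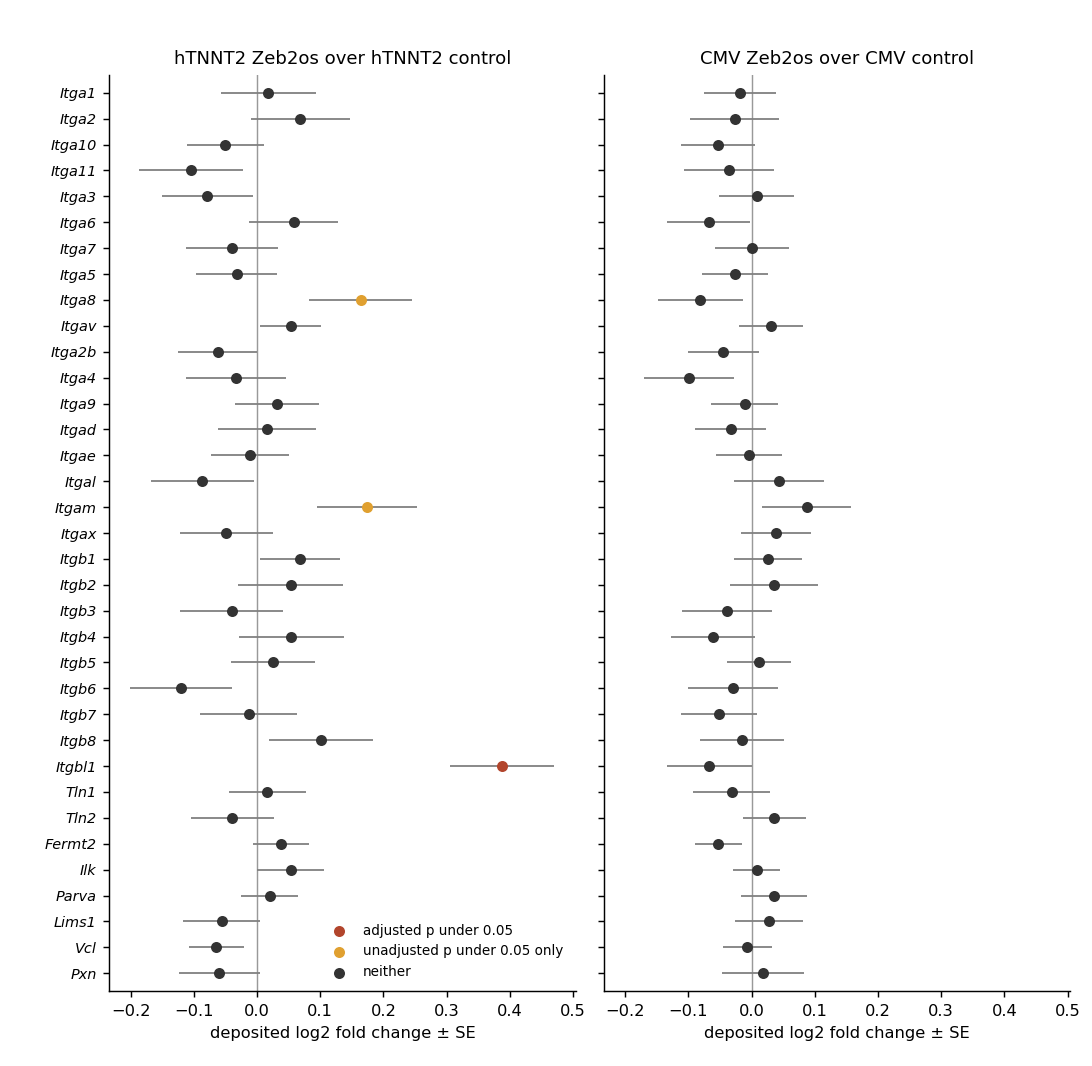
Log2 fold change ± SE of each of the 35 genes from the authors' deposited tables, Zeb2os over control, with the hTNNT2 promoter (left) and the CMV promoter (right). Itgbl1 at 0.39 with hTNNT2 stands apart, whereas all 35 genes lie within 0.1 of 0 with CMV.

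Itgbl1 lies on the plus strand of chromosome 14 of GRCm38, from 123659971 to 123975618 in GENCODE release M21. Its 12 exon blocks sum to 4229 bases and share none with exons of another annotated gene. Its mean normalised count was 519 in the authors' deposited table for hTNNT2 and 455 in the one for CMV. Per kb of exon that came to 123 and 107, which placed it at rank 20 of the 35 genes in both tables. The 95% interval of its log2 fold change, from the deposited SE, ran from 0.23 to 0.55 with hTNNT2 and from -0.20 to 0.064 with CMV on the scale of the authors' deposited tables.

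The size of this change depends on that scale. No SE in the authors' deposited tables exceeded 0.083 (hTNNT2) or 0.071 (CMV). Among genes whose mean count reached 50, 47.0% (hTNNT2) and 45.6% (CMV) had an SE above 90% of that ceiling. At mean counts of at most 0.5 the median SE was smaller, 0.0073 (hTNNT2) and 0.0054 (CMV) in the authors' deposited tables. Both features are those of fold changes drawn toward 0 by a normal prior, which leaves the statistic and its p-value as they were. No source used here says whether the authors applied one. Under such a prior, the ceilings correspond to prior SDs of 0.17 (hTNNT2) and 0.14 (CMV). With it removed, Itgbl1 would have a ratio of 1.68 with hTNNT2, or 0.75 on the log2 scale (SE 0.16). The second solution of the same equation gave a ratio of 1.75, or 0.81 on the log2 scale. With CMV the solutions were -0.098 and -0.21. Fold changes below are on the deposited scale unless stated otherwise, where they may understate the change of a gene.

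Whether Itgbl1 responded differently with the 2 promoters was tested on the difference of the deposited fold changes. On that scale, where the implied prior SDs were 0.17 (hTNNT2) and 0.14 (CMV), the difference was 0.45 (SE 0.11), with a 95% interval from 0.25 to 0.66. With the prior removed it would lie above this interval, from 0.85 (SE 0.19) to 1.01 (SE 0.27) depending on the solutions used. The unadjusted p of the difference on the deposited scale was 1.91e-05, which ranked 3 of 20754 genes. Adjusted by the Benjamini-Hochberg method over all of them, p was 0.132, so the difference did not pass. Over all genes 0.00482% passed this test, and 0 of the 35 did. At an unadjusted p under 0.05 there were 2 of the 35, Itgbl1 and Itga8, against 2.65% of all genes. The pairs also differed in Zeb2os itself, the single gene that passed this test (0.87, SE 0.11, adjusted p 4.02e-11). In the authors' deposited tables it had a mean count of 43281 and a log2 fold change of 4.53 with hTNNT2, and of 4138 and 3.66 with CMV. Sex differed as well: 3 of 5 mice were male with hTNNT2 Zeb2os and 0 of 5 with its control. With CMV, 1 of 5 and 2 of 5 were male in turn. The promoter, the amount of Zeb2os and sex therefore cannot be told apart in this comparison. Under 5 alternatives the adjusted p of the Itgbl1 difference ranged from 0.0664 to 0.415, and in none did it pass 0.05. In 1 of them only the threshold moved, to 0.1, so its adjusted p of 0.132 could not differ.

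**Figure D2:**
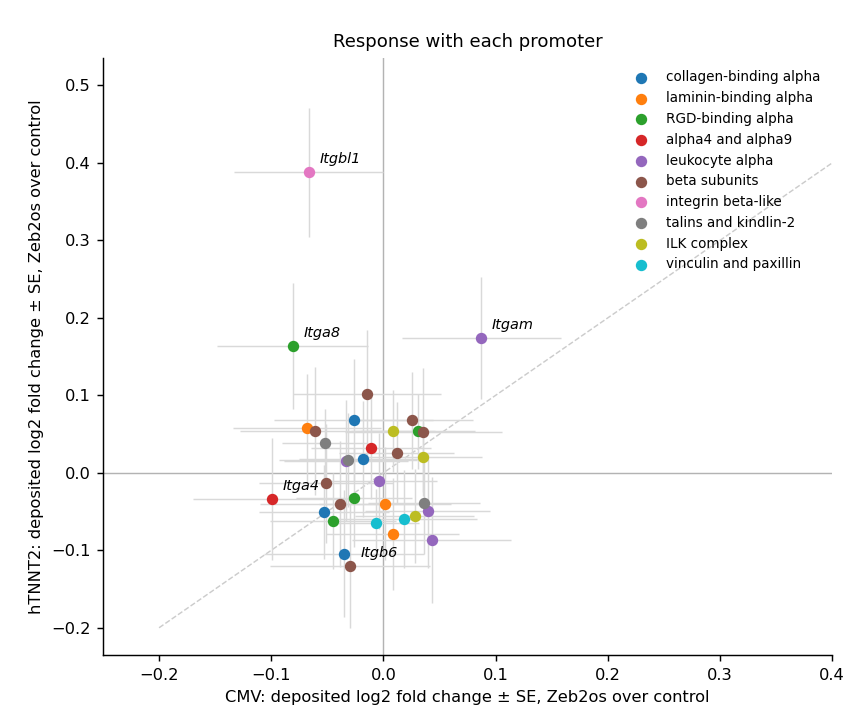
Log2 fold change ± SE of each of the 35 genes from the authors' deposited tables, with CMV Zeb2os on the horizontal axis and hTNNT2 Zeb2os on the vertical axis, coloured by role; the dashed line marks equal values. Itgbl1 lies at 0.39 with hTNNT2 and -0.067 with CMV, away from the cloud of the other genes.

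The promoter windows of the 3 genes with an unadjusted p under 0.05 are shown. The reason is Zeb2, the partner of the RNA that was raised, a transcription factor known to bind the letters CACCT. Zeb2 itself was not called, at 0.033 (SE 0.080, unadjusted p = 0.685) with hTNNT2 Zeb2os in the authors' deposited table. With CMV Zeb2os it stood at -0.0095 (SE 0.059, unadjusted p = 0.872) there. Windows are the 250 bases before the RefSeq start on GRCm38.p6, 5′ to 3′ on the strand of the gene, and capitals mark CACCT or its reverse complement AGGTG. For Itgbl1 the 81 bases before the GENCODE start are printed (chr14:123659890-123659970, plus strand), since the other 169 of its window lie in an exon of a longer transcript. The Itgam window is chr7:128062390-128062639 (plus strand) and the Itga8 window chr2:12301945-12302194 (minus strand). The gene E030013I19Rik on the opposite strand overlaps 372 exonic bases of Itga8.
Itgbl1: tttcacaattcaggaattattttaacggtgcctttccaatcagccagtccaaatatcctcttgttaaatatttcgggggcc
Itgam: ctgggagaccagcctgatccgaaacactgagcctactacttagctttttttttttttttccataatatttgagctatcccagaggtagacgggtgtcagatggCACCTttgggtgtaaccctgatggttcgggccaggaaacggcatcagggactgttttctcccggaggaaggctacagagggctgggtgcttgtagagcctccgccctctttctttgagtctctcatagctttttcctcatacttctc
Itga8: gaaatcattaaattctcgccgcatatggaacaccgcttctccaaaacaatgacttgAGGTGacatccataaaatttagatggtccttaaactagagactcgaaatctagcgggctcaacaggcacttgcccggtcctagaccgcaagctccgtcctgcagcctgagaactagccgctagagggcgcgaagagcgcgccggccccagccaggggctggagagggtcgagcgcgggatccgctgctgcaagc

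The whole Itgbl1 window of 250 bases held 0 matches, and the Itgam and Itga8 windows 1 each, starting 147 and 194 bases before the start. Of the 35 genes, 24 had a window in the RefSeq table, and 15 of their 29 windows (51.7%) held CACCT on either strand, against 46.0% of 32851 windows of all genes. The longer form CACCTG, each copy of which is also a match to CACCT, stood in 6 of the 29 (20.7%), against 17.2% of all windows. A match is a run of letters and no evidence of binding, and its absence says nothing beyond this window.

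Levels showed which receptors the heart apex made. Dividing the mean normalised count by exon length gave a level per kb that can be compared between genes of a table, as a mean over both groups. The values below are from the hTNNT2 table, and in the CMV table each gene except Itgax was between 1.09 and 1.28 times lower. That ratio had a median of 1.16 over the 35 genes and 1.16 over all genes whose mean count reached 50 in both tables, since the tables were normalised separately. The levels spanned a ratio of 1111, from 8.84 for Itgae to 9814 for Itgb1. Fewer cells of a type and less RNA per cell cannot be told apart in such bulk tissue.

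**Figure D3:**
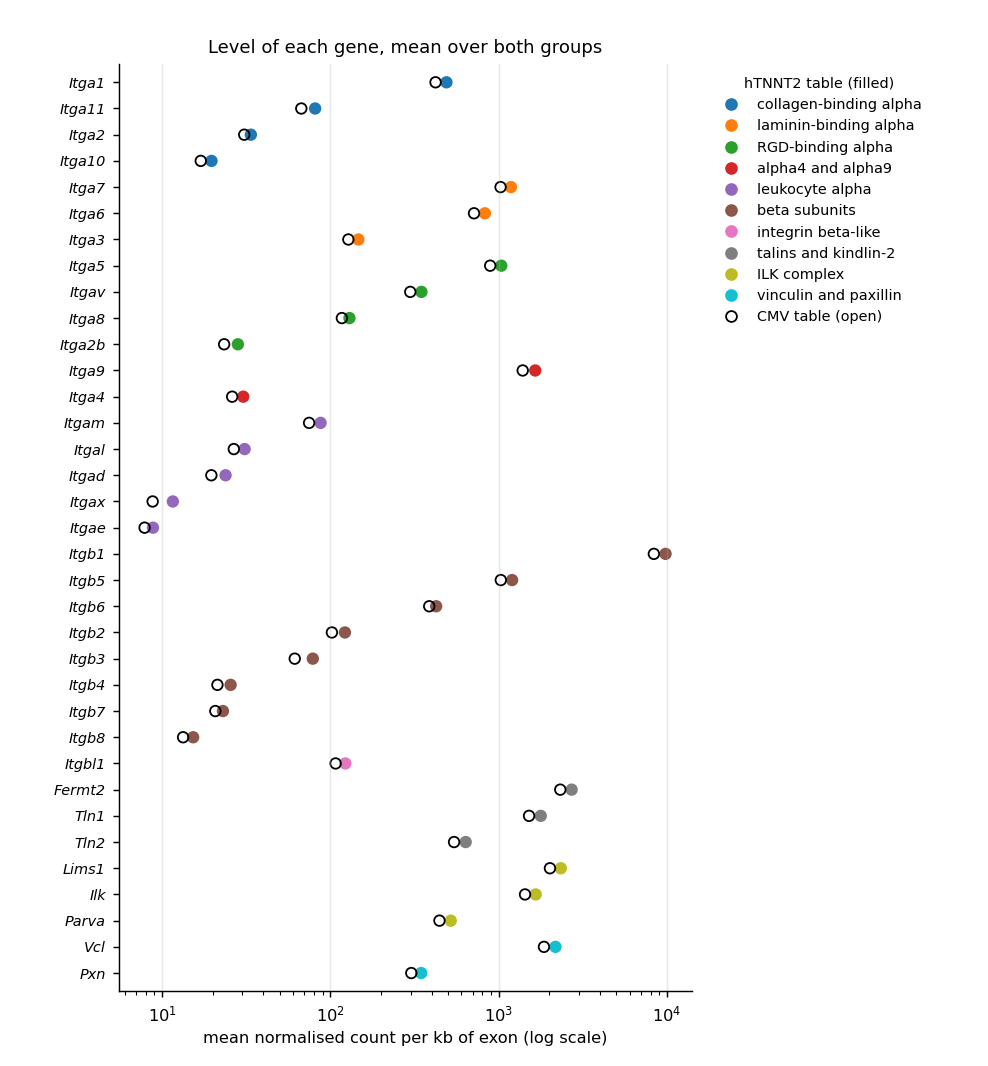
Mean normalised count per kb of exon (log scale) of each gene, ordered by role, from the authors' deposited means: filled points from the hTNNT2 table, open points from the CMV table. Itgb1 is highest at 9814 in the hTNNT2 table and Itgae lowest at 8.84.

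Among alpha subunits, 4 made up 76.2% of the summed level in the hTNNT2 table. These were Itga9, a receptor for tenascin-C and osteopontin, at 1650 per kb; Itga7, the laminin receptor of striated muscle, at 1184; Itga5, the fibronectin receptor, at 1037; and Itga6, a laminin receptor, at 828. With the length of the longest transcript in place of the union of exons, Itga7 came before Itga9 (25.9% against 19.7% of the summed alpha level) and Itga6 before Itga5 (18.9% against 12.6%), so the order of these 4 depends on the length used. The collagen receptor Itga1 followed at 490 per kb and Itgav, partner of several beta subunits and an activator of latent TGF-beta, at 348. Itga3, a laminin receptor most used by epithelia, had 147 and Itga8, the mesenchymal receptor for nephronectin, 130. The other collagen receptors were lower, with 81.2 for Itga11, 33.7 for Itga2 and 19.7 for Itga10. Of the exonic bases of Itga10, 33.5% are shared with Gm42957 on the same strand, so its level and fold changes are uncertain. The platelet subunit Itga2b stood at 28.2, and Itga4, a receptor for Vcam1 and fibronectin on white blood cells, at 30.4. The 5 alpha subunits of leukocytes together made up 2.64% of the alpha level, led by Itgam at 87.5 per kb.

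Itgb1, the partner of most alpha subunits in muscle, held 83.8% of the summed beta level in the hTNNT2 table and by itself exceeded the summed alpha level 1.59 times. Itgb5 was next at 1202 per kb, and Itgb6, best known from epithelia, had 425. Itgb2, the common beta subunit of leukocyte integrins, stood at 122, close to Itgbl1 at 123. Itgb3, Itgb4, Itgb7 and Itgb8 were between 15.3 and 78.7. Adaptors ranged from 347 per kb for paxillin to 2715 for Fermt2 (kindlin-2), with Lims1 at 2342, vinculin at 2176, Tln1 at 1779, Ilk at 1661, Tln2 at 637 and Parva at 519; all 8 were below Itgb1.

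The collagen-binding alpha subunits gave no call. With hTNNT2 Zeb2os, Itga1 stood at 0.018 (SE 0.075), Itga2 at 0.068 (SE 0.079), Itga10 at -0.050 (SE 0.061) and Itga11, found on fibroblasts, at -0.10 (SE 0.082) per the authors' deposited table. With CMV Zeb2os all 4 were on the lower side in the authors' deposited table, between -0.053 for Itga10 and -0.018 for Itga1, and the smallest unadjusted p was 0.363.

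Laminin receptors, the main attachment of cardiomyocytes to their basement membrane, gave no call. Itga7 had a log2 fold change of -0.040 (SE 0.073) with hTNNT2 and 0.0013 (SE 0.059) with CMV in the authors' deposited tables. Its 95% intervals ran from -0.18 to 0.10 and from -0.11 to 0.12 on that scale. Itga6 had 0.058 (SE 0.070) with hTNNT2 and -0.068 (SE 0.066) with CMV, and Itga3 had -0.079 (SE 0.072) and 0.0083 (SE 0.059), per the authors' deposited tables.

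Among receptors of the RGD sequence, Itga8 had the lowest p. With hTNNT2 Zeb2os its log2 fold change was 0.16 (SE 0.082, unadjusted p = 0.0452, adjusted p = 1.00), and with CMV Zeb2os it was -0.081 (SE 0.068, unadjusted p = 0.230), in the authors' deposited tables. The difference between promoters was 0.24 (SE 0.11, unadjusted p = 0.0210), and its adjusted p was 1. Itga5 stood at -0.032 (SE 0.064) and -0.026 (SE 0.052), Itgav at 0.053 (SE 0.048) and 0.031 (SE 0.051), and Itga2b at -0.063 (SE 0.062) and -0.045 (SE 0.056), with hTNNT2 and CMV in turn in the authors' deposited tables. Itga9, the alpha subunit with the highest mean count, gave 0.032 (SE 0.066) with hTNNT2 and -0.011 (SE 0.054) with CMV in the authors' deposited tables. On the deposited scale Itga4 had the CMV value farthest from 0 among the 35 genes, -0.099 (SE 0.071, unadjusted p = 0.161). With hTNNT2 it had -0.034 (SE 0.079) in the authors' deposited table. With the prior removed its CMV value would be -0.18 (SE 0.13), and that of Itga10 would lie farther from 0, at -0.25 (SE 0.28).

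Of the leukocyte integrins, 0 passed with either promoter. Itgam, the alpha subunit of the complement receptor of macrophages and neutrophils, stood at 0.17 (SE 0.079, unadjusted p = 0.0276, adjusted p = 1.00) with hTNNT2 Zeb2os and at 0.087 (SE 0.071) with CMV Zeb2os in the authors' deposited tables. Of its exonic bases, 68.7% are shared with a predicted gene on the same strand, Gm49368, so how its reads were counted is uncertain. Its common partner Itgb2 gave 0.053 (SE 0.083) with hTNNT2 and 0.035 (SE 0.070) with CMV in the authors' deposited tables. With hTNNT2, Itgal of lymphocytes stood at -0.086 (SE 0.081), Itgax of dendritic cells at -0.049 (SE 0.074), Itgad at 0.016 (SE 0.078) and Itgae, which binds E-cadherin, at -0.011 (SE 0.062) per the authors' deposited table. Itgam, Itgax and Itgad are neighbours on the plus strand of chromosome 7, with gaps of 11.1 and 3.72 kb. On the deposited scale with hTNNT2 the first had a value above 0.1 and the others lay within 0.05 of 0. With the prior removed as above, the values would be 0.27 (SE 0.12), -0.18 (SE 0.27) and 0.047 (SE 0.24) in turn.

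Markers of macrophages and monocytes lay on the higher side with hTNNT2 Zeb2os, as Itgam did. All 13 were higher, at a median log2 fold change of 0.14 against -0.00080 over all tested genes, 1 (Lyz2) passed as higher, and 6 had an unadjusted p under 0.05 per the authors' deposited table. Those with the lowest p were Lyz2 at 0.34 (SE 0.071), Mrc1 at 0.26 (SE 0.074), Csf1r at 0.21 (SE 0.069) and Ccr2 at 0.23 (SE 0.083) in the authors' deposited table. With CMV Zeb2os 4 were higher and 9 lower, at a median of -0.017. Mean counts of the 13 summed to 19661 in the hTNNT2 table and 17378 in the CMV table of the authors, and 0 were at 0. The 6 markers of neutrophils, which also carry Itgam, summed to a mean count of only 137 with hTNNT2 in the authors' deposited table, and 0 of them were higher. Markers of lymphocytes had low counts. Those of platelets had mean counts from 19.5 to 922 with hTNNT2 in the authors' deposited table. With either promoter 0 of the lymphocyte and platelet markers passed. Of T and NK cell markers 2 of 9 were higher with hTNNT2 and 7 of 9 with CMV, of B and plasma cell markers 0 of 5 and 4 of 5, and of platelet markers 2 of 6 and 1 of 6. Of these only Cd8a with hTNNT2, at -0.11 (SE 0.053), and Gzma with CMV, at 0.073 (SE 0.037), had an unadjusted p under 0.05 in the authors' deposited tables. The part of these cells in the value of Itgam was not tested.

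Beta subunits gave no call either. Itgb1 had a log2 fold change of 0.068 (SE 0.063) with hTNNT2 and 0.026 (SE 0.054) with CMV in the authors' deposited tables, with 95% intervals from -0.055 to 0.19 and from -0.080 to 0.13 on that scale. With the prior removed as above, its hTNNT2 value would be 0.082 (SE 0.076). On the deposited scale Itgb6 stood lowest of the 35 with hTNNT2, at -0.12 (SE 0.081, unadjusted p = 0.137). With the prior removed it would be -0.19 (SE 0.13), above Itga2b at -0.37 (SE 0.37) and Itga10 at -0.31 (SE 0.38). Itgb8, which with Itgav frees TGF-beta, stood at 0.10 (SE 0.083), per the authors' deposited table. Itgb3, the vitronectin and fibrinogen receptor subunit, had -0.040 (SE 0.081) with hTNNT2 and -0.039 (SE 0.071) with CMV in the authors' deposited tables. Itgb4 of hemidesmosomes, Itgb5 and Itgb7 of lymphocytes lay between -0.013 and 0.054 with hTNNT2 in the authors' deposited table.

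Adaptors had the smallest SEs of the set, down to 0.043 with hTNNT2 and 0.038 with CMV in the authors' deposited tables, and 0 of 8 passed with either promoter, with 0 also at an unadjusted p under 0.05. Vinculin, which reinforces the adhesion under load, stood at -0.064 (SE 0.043, unadjusted p = 0.134) with hTNNT2 and -0.0069 (SE 0.039) with CMV in the authors' deposited tables. Paxillin gave -0.059 (SE 0.063) and 0.019 (SE 0.065) with hTNNT2 and CMV in turn in the authors' deposited tables. Talin 1, the widely expressed form, had 0.016 (SE 0.061) and talin 2, the form prominent in mature heart muscle, -0.039 (SE 0.066) with hTNNT2 per the authors' deposited table. Kindlin-2 (Fermt2) stood at 0.038 (SE 0.045) with hTNNT2 and -0.053 (SE 0.038, unadjusted p = 0.162) with CMV in the authors' deposited tables. The complex of Ilk, Parva and Lims1 had values of 0.054, 0.020 and -0.056 with hTNNT2, and of 0.0082, 0.035 and 0.028 with CMV, in the authors' deposited tables. Of the exonic bases of Ilk 89.7% are overlapped by genes of the opposite strand, Rrp8 and Taf10, and of those of vinculin 25.5% by Ap3m1. Whether reads were counted by strand is unstated, which leaves the origin of reads in these overlaps uncertain.

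**Figure D4:**
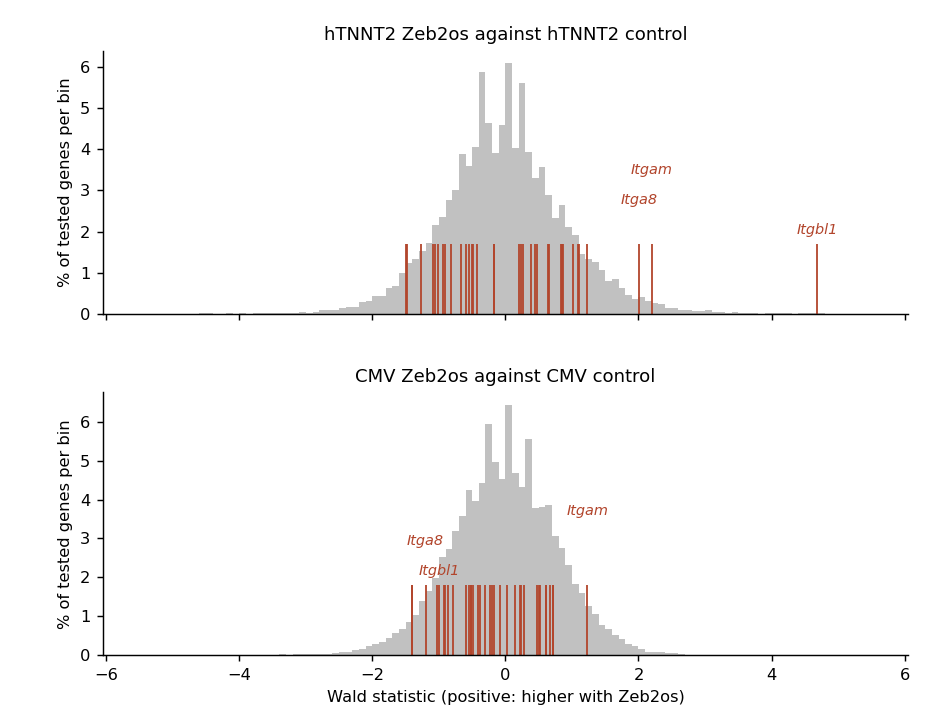
Wald statistics of all tested genes (grey histogram, percent of genes per bin) and of the 35 genes (red lines), with positive values for genes higher with Zeb2os, for hTNNT2 (top) and CMV (bottom); Zeb2os itself lies beyond the axis. Itgbl1 is the red line beyond 4 with hTNNT2, and the others lie inside the body of the histogram.

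The 35 genes were split between both directions. With hTNNT2, 18 were higher and 17 lower, at a median log2 fold change of 0.016, where the median over all tested genes was -0.00080 and 47% of them were higher in the authors' deposited table. With CMV, 14 were higher and 21 lower, at a median of -0.015, against a median of -0.00016 and 48.3% higher over all tested genes in the authors' deposited table. Besides Itgbl1, Itgam and Itga8, the other 32 genes lay between -0.12 and 0.10 with hTNNT2 and between -0.099 and 0.043 with CMV. With the 7 genes called with hTNNT2, a further gene would have been called at an unadjusted p of 2.2e-05, a statistic of 4.24. At the deposited SEs that is a log2 fold change of 0.18 for vinculin, which had the smallest SE, and 0.35 for Itgb2, which had the largest. Both are on the scale of the authors' deposited table. Since that SE has a ceiling and falls at low counts, it does not rank the genes by precision. With the prior removed as above, the SE with hTNNT2 would be 0.16 for Itgb2 and 0.38 for Itga10.

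The ligands and signalling partners of these receptors were followed in 5 lists, of which 93 genes had a p-value with hTNNT2 and 94 with CMV. With either promoter 0 of them passed at an adjusted p below 0.05, per the authors' deposited tables. Without adjustment, 11 had a p under 0.05 with hTNNT2, 10 of them higher, and 4 with CMV, 1 of them higher. These are 11.8% and 4.26% of the genes followed, where the shares over all genes were 3.92% and 1.67%, or 5.17% and 1.87% at mean counts of 50 or more. The lists too were chosen with earlier results of these data known, so these shares are no test of them. Matrix ligands of integrins had 21 of 26 members higher with hTNNT2, at a median log2 fold change of 0.082, and 10 of 26 with CMV, at a median of -0.013. In this list 6 had an unadjusted p under 0.05 with hTNNT2, all higher. Among them the matricellular Thbs2 stood at 0.27 (SE 0.079), the collagen chain Col1a2 at 0.22 (SE 0.081), the basement membrane linker Nid1 at 0.18 (SE 0.078) and Fbln5 of elastic fibres at 0.15 (SE 0.070) with hTNNT2 per the authors' deposited table. With CMV these were -0.0015 (SE 0.069), 0.021 (SE 0.069), -0.067 (SE 0.071) and -0.024 (SE 0.066) per the authors' deposited table, where Thbs1 alone of the list had an unadjusted p under 0.05, at -0.18 (SE 0.071). Thbs2 was also called with hTNNT2 when the statistics were rescaled to their own spread.

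Of the cell-surface ligands, Vcam1, the endothelial partner of Itga4, had an unadjusted p under 0.05 with both promoters, at 0.18 (SE 0.082) with hTNNT2 and 0.16 (SE 0.069) with CMV in the authors' deposited tables. Adhesion kinases and scaffolds had 8 of 20 higher with hTNNT2 and 5 of 20 with CMV, where Nedd9 at -0.15 (SE 0.071) and Pak1 at -0.16 (SE 0.071) had an unadjusted p under 0.05 in the authors' deposited table. Other adhesion adaptors had 8 of 23 higher with hTNNT2 and 7 of 24 with CMV. Fhl2, a LIM protein of heart muscle that binds integrin tails, stood at -0.18 (SE 0.068) and Rsu1, a partner of PINCH, at 0.13 (SE 0.065) with hTNNT2 per the authors' deposited table. Among modifiers of integrin activation, 11 of 16 were higher with hTNNT2 and 7 of 16 with CMV. Here Apbb1ip, which brings talin to the membrane in blood cells, stood at 0.20 (SE 0.080) and Cd47, a binding partner of Itgav with Itgb3, at 0.11 (SE 0.050) with hTNNT2 per the authors' deposited table.

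**Figure D5:**
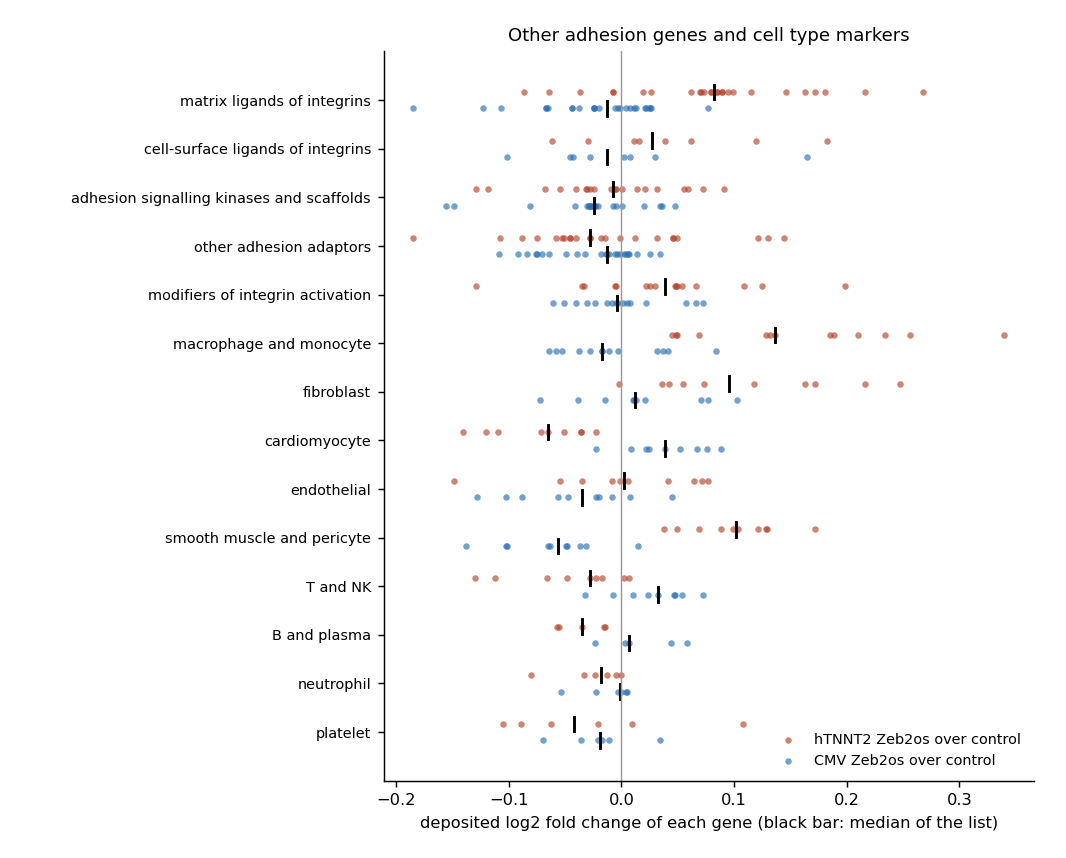
Log2 fold change of each gene of the ligand, signalling and cell type lists from the authors' deposited tables, Zeb2os over control, with hTNNT2 above CMV in each row and the list median as a black bar. Matrix ligands (median 0.082), fibroblast (0.095) and smooth muscle markers (0.10) lie to the right with hTNNT2 and near or left of 0 with CMV.

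With hTNNT2 Zeb2os, most fibroblast markers and all markers of smooth muscle and pericytes lay on the higher side, and cardiomyocyte markers on the lower side. Of 10 fibroblast markers 9 were higher, at a median log2 fold change of 0.095, with 0 passing and 4 higher at an unadjusted p under 0.05 in the authors' deposited table. Dcn, a small matrix proteoglycan, had the lowest p of these and stood at 0.25 with an SE of 0.063 per the authors' deposited table, where its adjusted p was 0.0995. All 10 markers of smooth muscle and pericytes were higher, at a median of 0.10, and all 9 cardiomyocyte markers were lower, at a median of -0.065. In these lists 0 passed and 1 gene each, Kcnj8 and Ryr2, had an unadjusted p under 0.05 in the authors' deposited table. With CMV the medians were 0.012, -0.056 and 0.039, with 7 of 10, 1 of 10 and 8 of 9 markers higher. Endothelial markers split 5 and 5 with hTNNT2. Mean counts of fibroblast markers summed to 173489 with hTNNT2 and 149118 with CMV in the authors' deposited tables, and no marker of these lists was at 0. The fibroblast list shares 4 genes with the matrix ligands, among them Col1a1, Col1a2 and Col3a1. The part of cell makeup in the value of Itgbl1 was not tested.

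Sex differed between the groups and could not enter a model. With hTNNT2 Zeb2os, where 3 of 5 mice were male against 0 of 5 controls, 4 of 4 X-linked genes that escape X inactivation were lower, at a median log2 fold change of -0.18, with Ddx3x at -0.23 (SE 0.077) and Kdm5c at -0.23 (SE 0.082), in the authors' deposited table. With CMV, where 1 of 5 was male against 2 of 5 controls, all 4 were higher, at a median of 0.036. For Itgbl1, Itgam and Itga8 with hTNNT2, sex and Zeb2os cannot be told apart. The differences between promoters carry the same limit, since the share of males changed differently in the 2 pairs.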

How the data were processed

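Per the labels' protocols, libraries of heart apex RNA from 20 mice were made after removal of ribosomal RNA. The authors trimmed reads with Trim Galore, compared groups with DESeq2 and used the builds GRCm38 and mm10, per the submitters' processing notes. The sources used here name no aligner, counter, strand setting, version or total count. Per the file headers, the authors deposited the mean normalised count as a signal, log2 fold changes with SE, the Wald statistic as a score, and p-values. The statistic had the opposite sign to the fold change and was turned.

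A gene passed at the authors' adjusted p under 0.05. The difference between promoters was divided by the root of summed squared SEs, and its 2-sided normal p was adjusted by Benjamini-Hochberg over 20754 genes. This test was run on data simulated with normal errors of the deposited SEs, which cannot show whether those SEs hold for the real data. Exon lengths came from GENCODE M21 and promoters from RefSeq. Names follow a rule: all 35 genes, plus up to 4 genes a list and comparison with the lowest unadjusted p under 0.05. Zeb2os and Zeb2 are named besides. The genes and lists were chosen with earlier results of these data known. Where nothing says that samples are separate litters or batches, p-values measure the spread between these mice. Python 3.11.15, numpy 2.4.6, pandas 2.3.3, scipy 1.17.1 and matplotlib 3.10.9 were used.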

Additional observations from a re-analysis of the deposited data

How the results depend on the processing

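The count of 1 member changed with hTNNT2 became 0 at an adjusted p threshold of 0.01. It was 1 at a threshold of 0.1, with adjustment over all genes or over those with a mean count of at least 50, with centring, and with statistics rescaled to their robust spread. Over the last 4 the adjusted p of Itgbl1 ranged from 0.000106 to 0.0205. Counts with CMV and between promoters were 0 under every alternative run. Rescaling gave 1 pathway gene changed with hTNNT2, Thbs2, instead of 0. With the longest transcript as length, the shares of the summed alpha level were 19.7% for Itga9, 25.9% for Itga7, 12.6% for Itga5 and 18.9% for Itga6, instead of 26.7%, 19.2%, 16.8% and 13.4%. Of 590 alternative values of single genes, 585 kept direction and call. Most of them could not change direction, since only centring and removing the prior alter the fold change itself. Centring turned Itga7 with CMV to -0.0014 and the Itgb3 difference to 0.0034, and removing the prior turned the Itga10 difference to -0.064 and the Itgb3 difference to 0.0037; none of these was called. Leaving out single mice could not be run without values per mouse. No paired analysis was possible because the deposited comparisons hold no values per mouse and the groups share no replicate numbers. Total counts per library are not known, so precision rests on the deposited SE.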
